A study of Mus musculus with 36 samples.

Results

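The olfactory receptor genes of the mouse autosomes were examined as chromatin regions in P0 hippocampal tissue and in neurospheres. Their members were the protein-coding genes of the autosomes in the GENCODE vM21 annotation of mm10 whose symbols start with Olfr, each taken as its gene body with 2 kb on either side, and 1128 of 20807 autosomal protein-coding genes met that rule. Receptor genes under 200 kb apart were joined into clusters, which gave 60 clusters on 17 chromosomes. Of these, 13 held a single gene and 34 held at least 5 genes, with 1079 genes between them. Chromosome 2 carried 294 members, chromosome 7 carried 244 and chromosome 9 carried 132. The windows had a median length of 9.99 kb and together took up 11.7 Mb, or 0.489% of the assembled autosomes, while the clusters from end to end spanned 29.0 Mb. A further 7 receptor genes on chromosome X and 271 autosomal Olfr entries that are not annotated as protein-coding were not members. The annotation lists Olfr290 under 2 gene identifiers, and 40 members have symbols ending in a pseudogene suffix although they are annotated as protein-coding.

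Olfactory receptors form the largest gene family of mammals and encode the odorant receptors of the nose. Each olfactory sensory neuron expresses a single allele of a single receptor gene, and in nearly all other cells the family is silent. Class I receptors, the type also found in fish, sit together on chromosome 7, and class II receptors are spread over many clusters. Polycomb repressive complex 1 places H2AK119ub1, a ubiquitin mark on histone H2A, and Polycomb repressive complex 2 places H3K27me3. Both marks are best known from CpG-rich promoters of silent developmental genes such as the Hox genes. H3K36me2 is a mark of active and intergenic chromatin that is largely exclusive of H3K27me3. KDM2B recruits a variant Polycomb repressive complex 1 to unmethylated CpG-rich DNA through its CxxC zinc finger.

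The study compared mice that lacked this zinc finger in the dorsal telencephalon with their controls. The cKO libraries came from Kdm2bEmx1-delta-CxxC animals, in which Cre under control of Emx1 removes the exon of the zinc finger, and the Ctrl libraries carry the genotype Kdm2bfl/+ or Kdm2bfl/fl in the labels. Each genotype was profiled in whole P0 hippocampus and in neurospheres, a suspension culture of progenitors taken from hippocampi of the same age and kept in FGF2, EGF, N2 and B27. H2AK119ub1, H3K27me3 and H3K36me2 were profiled by chromatin immunoprecipitation and sequencing, with 2 libraries per mark, source and genotype, so that 24 libraries have a deposited list of islands. An island is a stretch in which the SICER program found more reads than in the input, and each carries a read count. The other 12 of the 36 samples were inputs without an island list. The labels do not say that replicates came from separate animals, so p-values measure the spread between these libraries, which may be technical. Cells in which Emx1-Cre is not active remain in the tissue, and a mark in fewer cells cannot be told apart from less mark per cell. The islands hold neither RNA nor the deleted exon, so neither the cell types nor the deletion could be checked with them. The libraries held between 13701 and 148096 autosomal islands, between 986907 and 21946455 counts in them, and between 37.3 and 496 Mb of covered sequence. This range is wide within groups, so covered shares are given beside the share of the autosomes covered in the same library. The window of the Hox genes served as a positive check, with 51.3 to 100% of it in H2AK119ub1 or H3K27me3 islands and 0% in H3K36me2 islands in each library.

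The receptor genes were poor in CpG at their starts. None of the 1128 members had a CpG-rich promoter, against 48.3% of the other protein-coding genes, where CpG-rich means a CpG ratio of at least 0.6 and a GC content of at least 50% within 500 bp of the start. The median GC content of the promoter was 36.4% for the receptors and 55.7% for the other genes. The median CpG ratio, the number of CG pairs over the number expected from the base composition, was 0.106 for the receptors, 0.599 for the other genes and 0.269 for the other genes with CpG-poor promoters. RefSeq promoters of GRCm38.p6, from 250 bases before to 50 bases after the start, were matched for 925 of 1127 receptor symbols, or 82.1%. They held a median of 1 CG pair and at most 13, and 314 of them, or 33.9%, held none. Promoters of 14761 other genes held a median of 16 CG pairs, and 2.91% held none. Many of the RefSeq receptor models start at the coding sequence, since the annotated start lay on an ATG for 73.1% of the receptors and for 4.30% of the other genes, and the median distance between the RefSeq and GENCODE starts was 2727 bp for receptors and 13 bp for other genes. Part of these windows therefore lies in coding sequence.

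Promoters are printed here for the first receptors of 2 of the largest clusters, Olfr543 and Olfr160, and for the receptors with the most H2AK119ub1, Olfr71, and the most H3K27me3, Olfr463. Olfr543 was also the receptor with the most H3K36me2, and Olfr987 was the first gene of the largest cluster. Hoxa9 stands beside them as a Polycomb target outside the family. Lhx2 was added as a contrast rich in CG pairs after the values were seen, because the window of Hoxa9 in RefSeq held only 4. That window lies 3719 bp from the GENCODE start of Hoxa9, so it does not describe the sequence at that start. The windows of Olfr543, Olfr160, Olfr71 and Olfr463 lie 3777, 3970, 3689 and 3465 bp from their GENCODE starts, and that of Lhx2 lies 0 bp from its own. Within 2 kb of the Lhx2 start, H3K27me3 covered 0, 0, 0 and 100% in hippocampus, as Ctrl 1 and 2 and cKO 1 and 2. In neurospheres it covered 80, 0, 0 and 0%, and H2AK119ub1 covered 98, 100, 50 and 65%. Each sequence is written 5′ to 3′ along the gene, and capitals mark the CG pairs. Olfr543 lies on the minus strand at chr7:102477853-102478152 with 1 CG pair, and Olfr160 on the minus strand at chr9:37712231-37712530 with 0. Olfr71 lies on the minus strand at chr4:43706517-43706816 with 6 CG pairs, and Olfr463 on the minus strand at chr11:87893873-87894172 with 5. Hoxa9 lies on the minus strand at chr6:52227321-52227620, and Lhx2 on the plus strand at chr2:38339031-38339330 with 34 CG pairs and a GC content of 74.7%.
Olfr543: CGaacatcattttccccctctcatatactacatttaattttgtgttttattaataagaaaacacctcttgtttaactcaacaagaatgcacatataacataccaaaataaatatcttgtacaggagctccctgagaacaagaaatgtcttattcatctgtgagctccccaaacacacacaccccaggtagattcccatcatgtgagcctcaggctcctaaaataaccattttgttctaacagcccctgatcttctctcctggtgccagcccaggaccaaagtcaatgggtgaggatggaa
Olfr160: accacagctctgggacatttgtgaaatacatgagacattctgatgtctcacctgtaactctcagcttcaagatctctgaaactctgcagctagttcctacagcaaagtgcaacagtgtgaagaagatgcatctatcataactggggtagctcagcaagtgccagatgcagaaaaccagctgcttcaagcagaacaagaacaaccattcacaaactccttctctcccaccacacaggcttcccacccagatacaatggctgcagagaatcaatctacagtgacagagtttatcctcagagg
Olfr71: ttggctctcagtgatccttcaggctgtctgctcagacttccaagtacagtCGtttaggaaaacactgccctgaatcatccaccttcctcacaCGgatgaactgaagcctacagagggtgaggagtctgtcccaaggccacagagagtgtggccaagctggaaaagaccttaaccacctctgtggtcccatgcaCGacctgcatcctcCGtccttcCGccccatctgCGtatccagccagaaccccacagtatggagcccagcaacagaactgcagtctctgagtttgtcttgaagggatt
Olfr463: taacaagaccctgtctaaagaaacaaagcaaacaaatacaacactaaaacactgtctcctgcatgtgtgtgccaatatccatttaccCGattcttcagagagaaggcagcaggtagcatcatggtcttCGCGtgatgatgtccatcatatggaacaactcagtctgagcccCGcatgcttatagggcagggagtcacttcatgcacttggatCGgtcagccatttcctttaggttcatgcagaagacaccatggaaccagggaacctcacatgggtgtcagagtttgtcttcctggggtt
Hoxa9: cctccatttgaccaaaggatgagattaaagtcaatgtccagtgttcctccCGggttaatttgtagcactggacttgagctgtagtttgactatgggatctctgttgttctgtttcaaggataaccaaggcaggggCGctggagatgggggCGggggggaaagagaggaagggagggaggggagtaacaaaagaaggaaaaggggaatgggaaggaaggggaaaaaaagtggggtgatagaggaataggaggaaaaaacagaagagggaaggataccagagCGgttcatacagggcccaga
Lhx2: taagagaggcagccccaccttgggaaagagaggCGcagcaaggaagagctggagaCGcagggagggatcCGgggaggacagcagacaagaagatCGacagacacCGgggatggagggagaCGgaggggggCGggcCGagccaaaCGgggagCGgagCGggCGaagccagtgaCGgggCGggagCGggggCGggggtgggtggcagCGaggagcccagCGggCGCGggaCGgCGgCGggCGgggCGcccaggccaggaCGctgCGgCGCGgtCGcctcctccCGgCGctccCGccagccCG

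Short motifs known from receptor promoters were counted in the same RefSeq windows on both strands, and matches could overlap. TAATTA, the core bound by homeodomain factors such as LHX2 and EMX2, was present in 18.8% of the receptor promoters, 3.59% of the other promoters and 4.49% of all 15686. The TATA box letters TATAAA were found in 41.2% of receptor promoters, 11.2% of the others and 12.9% of all. The EBF site, TCCC and GGGA with any 2 bases between them, was found in 0.541% of receptor promoters, 1.00% of the others and 0.975% of all. The shares are a description, and the part that the lower GC content of the receptor promoters has in them was not tested. The start of these windows lay on an ATG for 73.1% of the receptors and 4.30% of the other genes. Many receptor windows thus lie around coding starts and may not hold the promoter. The part of this in the shares was not tested either.

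Most receptor genes carried no island of any mark. In the 24 libraries together, 798 of 1128 receptors, or 70.7%, had no island in their window. H3K27me3 was the mark that reached the most members, with 320 receptors, or 28.4%, in at least 1 of its 8 libraries and 14 in all 8. H2AK119ub1 touched 75 receptors in at least 1 of 8 libraries and H3K36me2 touched 42, and neither touched any receptor in all 4 hippocampal libraries. The 14 receptors with H3K27me3 in all 8 libraries were Olfr1413, Olfr1414, Olfr1415 and Olfr1416 of a single cluster on chromosome 1, and Olfr55, Olfr63, Olfr94, Olfr288, Olfr313, Olfr370, Olfr373, Olfr412, Olfr463 and Olfr464. In neurospheres, 6 receptors had H2AK119ub1 in all 4 libraries, namely Olfr159, Olfr222, Olfr223, Olfr412, Olfr463 and Olfr1410. Another 4, Olfr287, Olfr750, Olfr1330 and Olfr1331, had H3K36me2 in all 4. A receptor without an island is one in which no stretch passed the island threshold, which is not a measurement of 0 reads. These counts, and those by library below, stand without the same counts for other genes. Receptor genes were also shorter, with a median length of 5.99 kb against 19.4 kb for the other genes. The part of length in the counts was not tested, so they do not show what is particular to the family.

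H3K27me3 islands covered a few percent of the receptor windows. In hippocampus the 2 Ctrl libraries had 3.90 and 0.942% and the 2 cKO libraries 2.07 and 3.83%, where islands covered 5.15, 2.28, 5.09 and 6.66% of the autosomes in the same order. In neurospheres they covered 6.28 and 5.93% in Ctrl and 7.43 and 10.3% in cKO, against 10.2, 9.99, 12.7 and 10.9% of the autosomes. The receptor share was below that of the autosomes in all 8 libraries. The number of receptors with an island was 125, 41, 61 and 109 in hippocampus and 166, 197, 194 and 175 in neurospheres, again as Ctrl 1 and 2 and cKO 1 and 2. In neurospheres at least 50% of the window was covered in 56 and 51 receptors in Ctrl and in 64 and 110 in cKO.

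H2AK119ub1 islands were rare over the receptors, and rarest in tissue. In hippocampus they covered 0.0235 and 0.0735% of the windows in Ctrl and 0.0497 and 0.289% in cKO, although they covered 1.87, 6.56, 1.56 and 10.3% of the autosomes. These values rest on 2, 2, 4 and 12 islands. In neurospheres the share reached 1.37 and 0.448% (Ctrl) and 0.919 and 1.80% (cKO), against 13.3, 4.85, 7.26 and 12.9% of the autosomes, and 35, 18, 33 and 42 receptors had an island. The library with the lowest share of receptor windows was also the one with the lowest share of the autosomes in neurospheres but not in hippocampus.

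H3K36me2 islands were also rare over the receptors. The hippocampal ones covered 0.0453 and 0.0853% of the windows in Ctrl and 0.0909 and 0.0772% in cKO, in which 5, 3, 5 and 4 receptors had an island, although 4.78 to 6.72% of the autosomes was covered. In neurospheres it covered 0.387 and 0.526% in Ctrl and 0.686 and 0.196% in cKO, in which 17, 17, 31 and 6 receptors had an island, although 14.6 to 20.7% of the autosomes was covered.

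**Figure D1:**
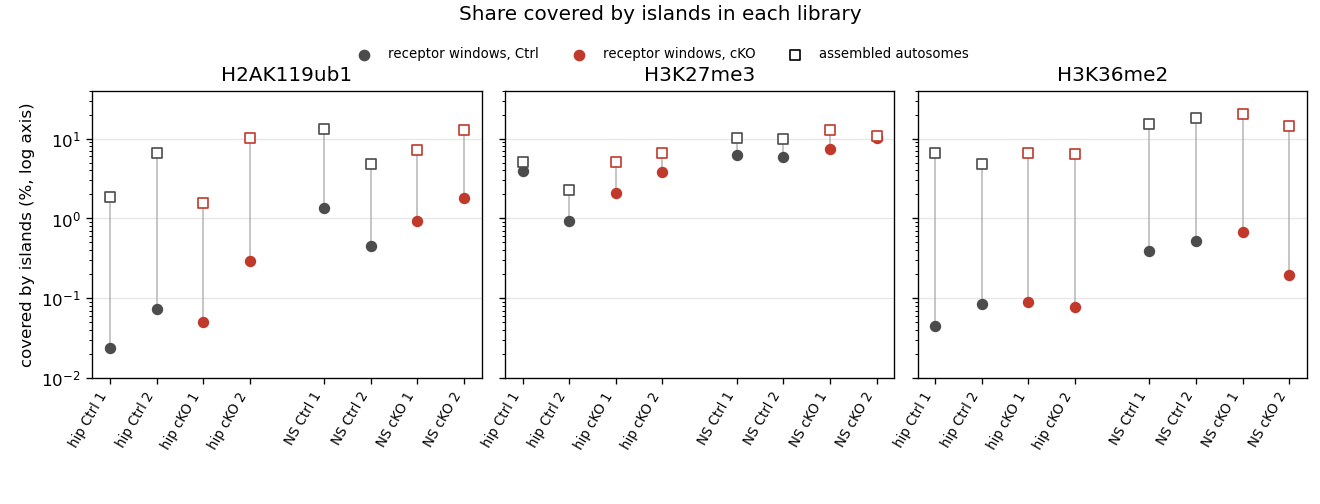
Share of the receptor windows, in percent, that lay in islands of each mark in each of the 24 libraries, by source and genotype, beside the share of the autosomes in the same library (open squares), on a logarithmic axis, with hippocampus as hip and neurospheres as NS. H3K27me3 covered 0.942 to 10.3% of the windows, whereas H2AK119ub1 covered at most 1.80% and H3K36me2 at most 0.686%.

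The covered share of the windows divided by that of the autosomes, here called the enrichment, placed H3K27me3 above the other 2 marks in either source. In hippocampus the values of H2AK119ub1 and H3K36me2 overlapped. The median covered share there was 0.0616% for H2AK119ub1 and 0.0813% for H3K36me2. For H3K27me3 it was 0.757, 0.413, 0.407 and 0.575 in hippocampus and 0.614, 0.594, 0.585 and 0.950 in neurospheres, as Ctrl 1 and 2 and cKO 1 and 2. For H2AK119ub1 it was 0.0125, 0.0112, 0.0319 and 0.0280 in hippocampus and 0.103, 0.0924, 0.127 and 0.140 in neurospheres. For H3K36me2 it was 0.00674, 0.0179, 0.0139 and 0.0119 in hippocampus and 0.0250, 0.0292, 0.0332 and 0.0135 in neurospheres. All of these lie below 1, the value of a region covered like the autosomes as a whole.

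On the log2 scale the enrichment of H3K27me3 was above that of H2AK119ub1 by 4.79 in hippocampus and 2.56 in neurospheres, and above that of H3K36me2 by 5.45 and 4.81. In each case all 4 libraries of the higher mark were above all 4 of the lower, with p = 0.029 by a two-sided exact permutation test, the smallest that 4 against 4 libraries allow, and an adjusted p of 0.0343 over the 6 comparisons of marks. H2AK119ub1 was above H3K36me2 by 2.25 in neurospheres with the same p and adjusted p, and the difference of 0.66 in hippocampus had p = 0.257 by the exact permutation test. The paper divided each lysate between the marks, whereas these tests took the libraries as independent and pooled the genotypes. In hippocampus the labels give H3K36me2 inputs of its own, so its contrasts with the other marks coincide with another set of inputs. The part of either in the differences was not tested. Between sources, the log2 enrichment of H2AK119ub1 was 2.60 higher in neurospheres, where all 4 libraries were above the 4 hippocampal ones, with p = 0.029 by the exact permutation test and an adjusted p of 0.0857 over the 3 marks. The difference was 0.37 for H3K27me3, with p = 0.200, and 1.01 for H3K36me2, with p = 0.0857, by the same exact permutation test. None of the differences between sources passed the adjustment. The value for H3K27me3 turned to -1.67, with an adjusted p of 0.0429 by the exact permutation test, when islands were reduced to an equal covered length, and was 0.55 with the same adjusted p without hippocampal Ctrl replicate 1.

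**Figure D2:**
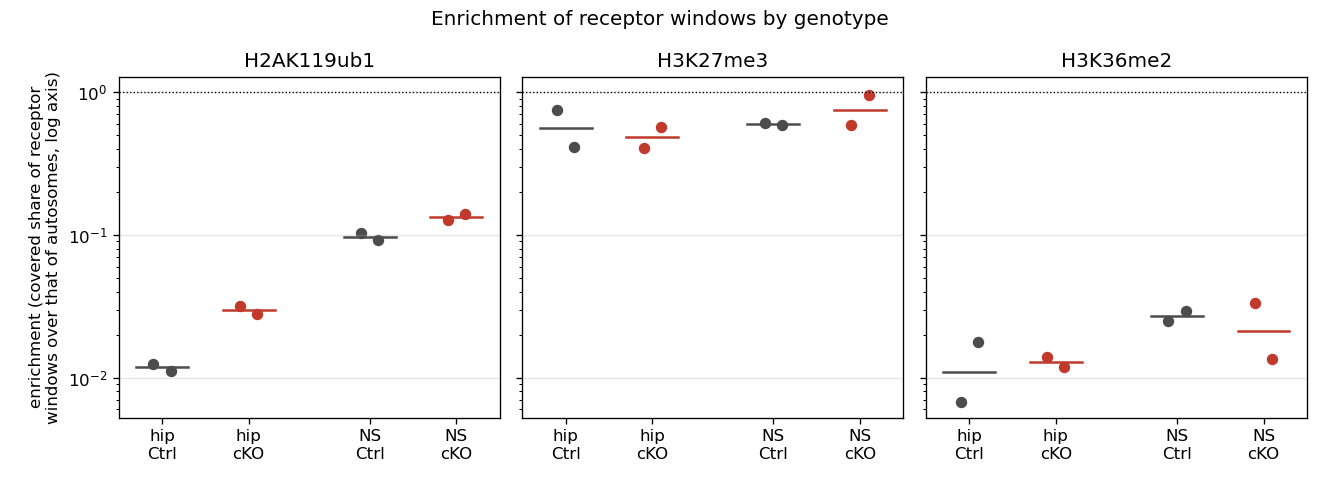
Enrichment of the receptor windows in islands, as the covered share of the windows over that of the autosomes on a logarithmic axis, for each library by mark, source (hip, NS) and genotype, where horizontal lines are geometric means of 2 libraries and the dotted line is 1. The H3K27me3 points lie between 0.407 and 0.950, above the H2AK119ub1 and H3K36me2 points of the same source.

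Compared with other gene windows, the receptors carried less of every mark. The windows of the other protein-coding genes were covered by H2AK119ub1 to 1.82 to 19.0% over the 8 libraries, and the receptors differed from them by a mean of -9.20 percentage points, lower in 8 of 8 libraries, with p = 0.0078 by an exact sign-flip permutation test over the libraries, the smallest it can give. For H3K36me2 the other genes were covered to 4.21 to 29.4%, and the receptors differed by -13.8 points, lower in 8 of 8 libraries, with the same p by the exact test. For H3K27me3 the difference was -2.21 points, lower in 7 of 8 libraries, with p = 0.0234 by the exact sign-flip test and an adjusted p of 0.0264 over the 9 comparisons. The exception was cKO replicate 2 of the neurospheres, in which 10.3% of the receptor windows and 9.02% of the other windows were covered. With gene bodies alone the H3K27me3 difference was -1.46 points, with an adjusted p of 0.0703 by the same exact test. Leaving out any of the libraries other than hippocampal Ctrl replicate 1 and neurosphere cKO replicate 2 gave -2.31 to -1.91 points with an adjusted p of 0.0527.

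The receptors also lay below other genes that share their CpG-poor promoters. The 10173 other genes with CpG-poor promoters were covered by H2AK119ub1 to 1.56 to 18%, by H3K27me3 to 2.84 to 16.1% and by H3K36me2 to 4.19 to 24.4%. The receptors differed from them by -8.50, -4.51 and -11.7 points, lower in 8 of 8 libraries for each mark, with p = 0.0078 and an adjusted p of 0.0117 by the exact sign-flip test. The 329 vomeronasal receptor genes, which encode the pheromone receptors and are also clustered and silent outside their sensory organ, were compared as well. Their H3K27me3 share was 0.506 to 3.90%, and the olfactory receptors lay 3.44 points higher, in 7 of 8 libraries, with p = 0.0156 by the exact sign-flip test and an adjusted p of 0.0201. For H2AK119ub1 the vomeronasal windows were covered to at most 0.0860%, and the olfactory receptors lay 0.596 points higher in 8 of 8 libraries with p = 0.0078 by the exact test. For H3K36me2 the difference was 0.0314 points with p = 0.664 by the exact test. In both families many genes are near copies of each other, and how reads that align to several copies were placed is not given in the sources used here. Its part in the low coverage was not tested.

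The islands that did lie at receptors held about as many counts per kb as other islands. The median counts per kb of islands touching a receptor window was 0.83 to 1.05 times that of all autosomal islands of the same library over the 24 libraries. For H3K27me3 in neurospheres it was 47.0, 41.8, 35.6 and 33.6 counts per kb at receptors and 45.2, 39.9, 35.0 and 33.3 over all islands, as Ctrl 1 and 2 and cKO 1 and 2. The median width of these islands was 2.2, 1.6, 3.0 and 5.9 kb at receptors and 3.0, 2.4, 3.6 and 5.4 kb over all islands. The widest island at a receptor was 55.4 kb long, in neurosphere cKO replicate 2. The ratio of the widths was higher in cKO by 0.26 on the log2 scale for H3K27me3 over both sources, with p = 0.0556 by an exact permutation test within sources, the smallest it can give. The same test gave p of 0.333 or more for the widths of the other marks and 0.167 or more for counts per kb.

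The H3K27me3 share was lower in receptors farther from CpG-rich starts of other genes. The distance from each receptor to the nearest CpG-rich start was under 50 kb for 57 receptors, 50 to 200 kb for 223, 200 kb to 1 Mb for 597 and over 1 Mb for 251. In neurospheres the nearest set had an H3K27me3 share of 44.9 and 43.8% (Ctrl) and 47.3 and 55.8% (cKO). It was 15.8, 14.1, 18.5 and 29.5% at 50 to 200 kb, and 0.939, 1.00, 1.59 and 1.89% at 200 kb to 1 Mb. Over 1 Mb away it was between 0.0979 and 0.493%. The hippocampal libraries had the same order of the first 3 classes, from 4.55 to 26.8% under 50 kb down to 0.243 to 1.06% at 200 kb to 1 Mb.

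**Figure D3:**
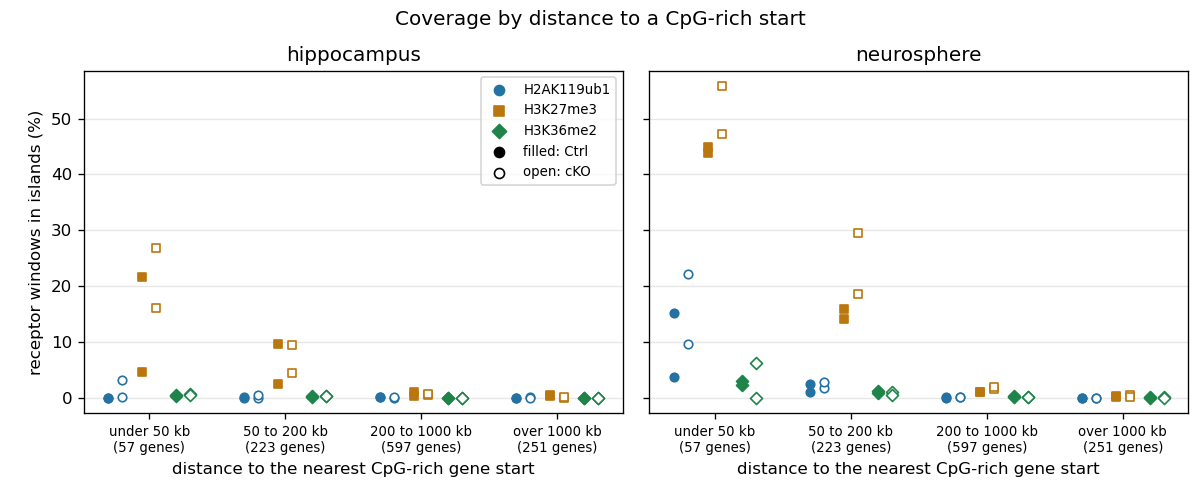
Covered share of the receptor windows, in percent, by distance from the receptor to the nearest CpG-rich start of another gene, for each mark, source and library. H3K27me3 in neurospheres goes from 43.8 to 55.8% under 50 kb to at most 0.493% over 1 Mb.

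Single receptors departed from this order, since Olfr412, with H3K27me3 in all 8 libraries, lay 249 kb from such a start.

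The classes were joined at 200 kb after these values were seen, so the joined values are a description with no test. The 280 receptors under 200 kb had an H3K27me3 share of 2.83 to 34.6%, with a median of 16.3%, and the other 848 had 0.242 to 1.38%, with a median of 0.752%. The nearer receptors were higher in 8 of 8 libraries, by a mean of 16 points. For H2AK119ub1 the medians were 1.29 and 0.0475%, higher near in 6 of 8 libraries. For H3K36me2 they were 0.366 and 0.0447%, higher near in 8 of 8 libraries. Other genes with CpG-poor promoters had H3K27me3 medians of 14.4% for the 7431 that were under 200 kb away and 4.79% for the other 2742. The state of the neighbouring start was compared as well, among the 280 receptors under 200 kb only. Receptors whose nearest start was in an H3K27me3 island had a median share of 20.5% and the others 15.8%, higher in 5 of 8 libraries, with p = 0.352 by the exact sign-flip test over the 8 libraries. These 280 receptors had 77 distinct nearest genes with a CpG-rich start. The share of H3K27me3 also varied with cluster size and base composition. In neurospheres its median over libraries was 25.2% for single receptors, 33.6% in clusters of 2 to 9, 4.50% in clusters of 10 to 49 and 1.48% in clusters of 50 or more. In 4 equal sets of 282 receptors by the CpG ratio of the window it was 2.12, 3.17, 4.46 and 17.2% from the lowest to the highest ratio. Distance, cluster size and base composition vary together among these genes and were not separated.

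H3K27me3 was also read around the starts themselves. In neurospheres 6.56 to 10.8% of the receptors had an island at the start, 5.23 to 8.51% at 20 kb before it and 4.17 to 7.98% at 20 kb after it. Of the other genes with CpG-poor promoters, 20.6 to 30.5% had one at the start and 17.4 to 22.0% at 20 kb on either side. In hippocampus the receptors had 0.709 to 3.90% at the start, 1.06 to 3.72% at 20 kb before it and 0.443 to 2.84% at 20 kb after it, and the other genes had 9.12 to 21.8% at the start. These values are a description, with no test.

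**Figure D4:**
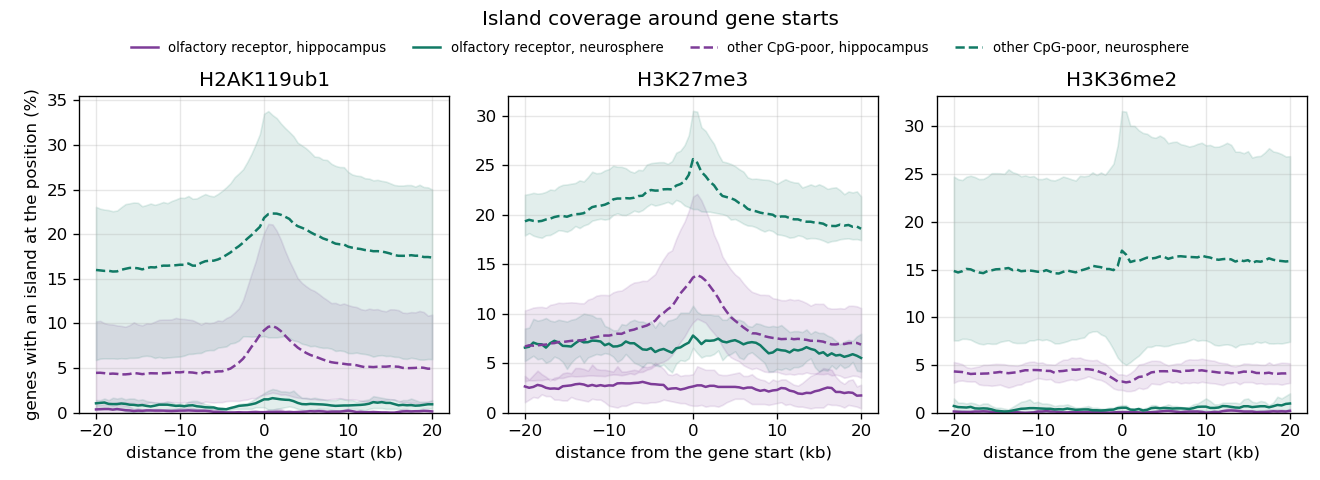
Share of genes, in percent, with an island at each distance in kb from the GENCODE start, by mark and source, for the receptors (solid) and the other genes with CpG-poor promoters (dashed), where lines are means over 4 libraries and bands run from the lowest to the highest. At the start H3K27me3 lies over 6.56 to 10.8% of the receptors and 20.6 to 30.5% of the other genes in neurospheres.

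The clusters differed far more from each other than the genotypes did. Of the 34 clusters with at least 5 genes, taken with 2 kb on each side, the mean H3K27me3 share in neurospheres ran from 0.167 to 79.6% with a median of 3.91%, and 10 clusters were above the share of the autosomes. In hippocampus it ran from 0 to 50.3% with a median of 1.44%, and 8 clusters were above. H2AK119ub1 was at 0 in 15 of the 34 clusters in hippocampus and 16 in neurospheres, and H3K36me2 in 23 and 7. Over the 34 clusters, the rank correlation of the mean share between hippocampus and neurospheres was 0.83 for H3K27me3, 0.60 for H2AK119ub1 and 0.35 for H3K36me2. The clusters share their libraries and their neighbours, so these values are a description.

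Among the clusters with at least 5 genes, the one with the most H3K27me3 lay on chromosome 1 from 92475925 to 92623412 and held 8 genes from Olfr1416 to Olfr12, between Cops9 and Ndufa10. H3K27me3 covered 61.4, 12.1, 55.6 and 72.1% of it in hippocampus and 74.3, 66.3, 82.1 and 95.9% in neurospheres. Second among them was a cluster of 6 genes on chromosome 4, from 43694784 to 43857595, with 68.0, 65.1, 71.6 and 57.4% in neurospheres. Of the clusters of this size it also held the most H2AK119ub1, with 47.1, 1.56, 35.4 and 46.0% in neurospheres, and the most H3K36me2, with 16, 4.33, 19.9 and 0.599%. In this cluster Ctrl replicate 2 was far below the other H2AK119ub1 libraries. It contains Olfr70, Olfr71, Olfr159 and Olfr155 and lies between Fam221b and Reck. It was followed by a cluster of 9 genes on chromosome 15, from 98186013 to 98502637, with 49.3, 44.8, 59.6 and 69.0% H3K27me3 in neurospheres. Some smaller clusters had more, and the 3 genes from Olfr462 to Olfr464 on chromosome 11 had a mean H3K27me3 share of 71.1% over the 8 libraries, against 65% for the cluster on chromosome 1. These small clusters were named after their values were seen.

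The largest clusters carried little of any mark. The cluster of 227 genes on chromosome 2, from 85330779 to 90403897, had a mean H3K27me3 share of 0.397% over 8 libraries. A cluster of class I receptors, with 95 genes on chromosome 7 from 102476579 to 104195985, had 2.79%. The cluster that follows it on that chromosome, with 34 genes from Olfr651 to Olfr692, had 0.586%. The cluster of 95 genes on chromosome 9, which begins with Olfr160, had 2.08%. The lowest cluster with at least 5 genes was one of 15 genes on chromosome 7, from 86268487 to 86697507, with 0.110%. It had no island of H2AK119ub1 or H3K36me2 in any library.

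**Figure D5:**
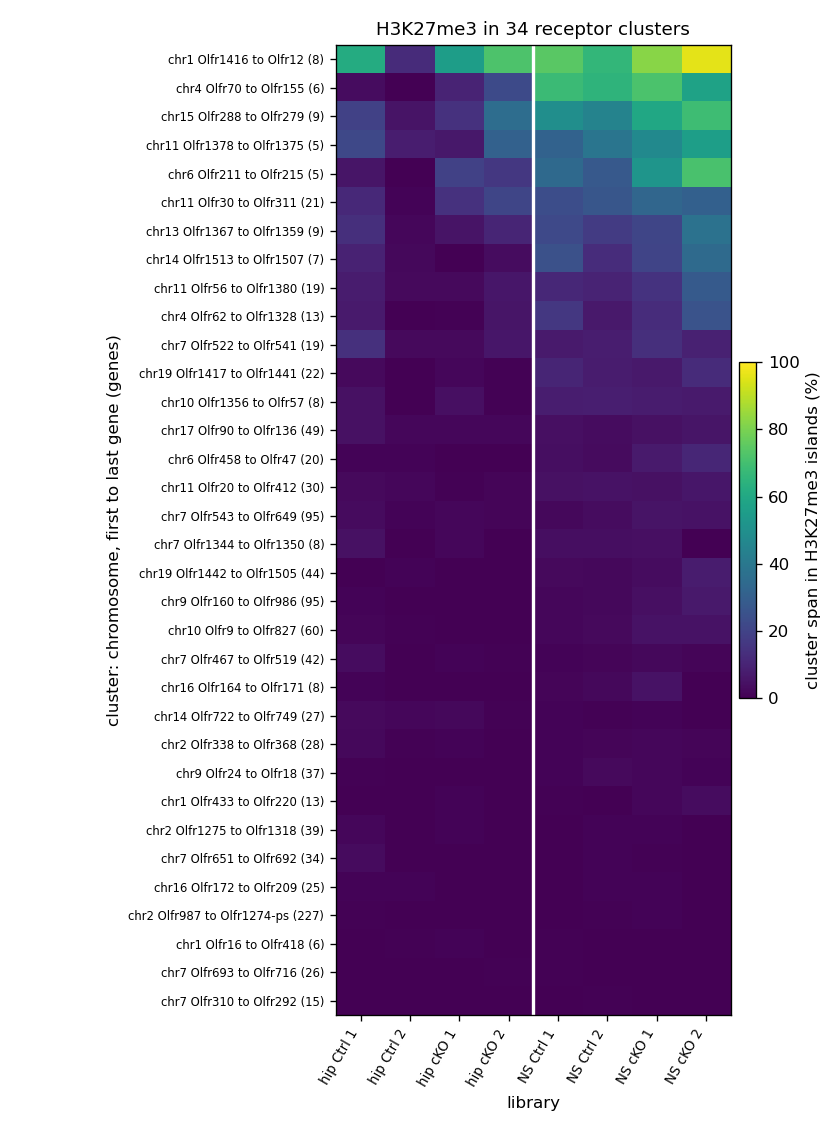
Share of each cluster of at least 5 receptor genes, in percent of its span, that lay in H3K27me3 islands in each of the 8 libraries. The cluster from Olfr1416 to Olfr12 is the highest, with 66.3 to 95.9% in neurospheres, and the cluster of 227 genes on chromosome 2 has a mean of 0.397%.

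The clusters were also poorer in all 3 marks than the DNA that flanks them, a comparison chosen after the values were seen. The H3K27me3 share had a median of 2.45% within cluster spans and 4.64% in the 200 kb on each side in hippocampus, and of 6.11 and 14.4% in neurospheres. For H2AK119ub1 the medians were 0.124 and 1.73% in hippocampus and 0.923 and 10.1% in neurospheres, and for H3K36me2 they were 0.112 and 2.50%, and 0.365 and 10.5%. The spans were lower in 8 of 8 libraries for every mark, by a mean difference of -5.15, -5.42 and -6.48 points for H3K27me3, H2AK119ub1 and H3K36me2, with p = 0.0078 by the exact sign-flip test for each.

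Where receptors carried H2AK119ub1 in neurospheres, they mostly carried H3K27me3 as well, which was not so in each hippocampal library. Between 74.2 and 86.4% of the receptor bases in H2AK119ub1 islands were in H3K27me3 islands of the library with the same genotype and replicate number, against 31.4 to 57% over the autosomes. In the other direction, 5.99 to 18.8% of the receptor bases in H3K27me3 islands were in H2AK119ub1 islands, against 27.7 to 53.3% over the autosomes. In hippocampus, where H2AK119ub1 covered 2.75 to 33.9 kb of receptor windows, 80.0, 0, 20.6 and 41.5% of these bases were in H3K27me3 islands, against 16.7 to 32.0% over the autosomes. The number that pairs these libraries is only a label, and the overlap is given as a share of each set.

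Single receptors showed the same contrasts. Olfr463 on chromosome 11 had the highest mean H3K27me3 share, with 70.4, 27.4, 90.9 and 100% of its window in hippocampus. All 4 neurosphere libraries had 100%. Olfr71 on chromosome 4 had the highest mean H2AK119ub1 share, with 86.7 and 0% in Ctrl and 79.0 and 91.2% in cKO neurospheres. In hippocampus it had 0, 0, 0 and 41.3%. The printed windows of Olfr463 and Olfr71, with 5 and 6 CG pairs, lie 3465 and 3689 bp from their GENCODE starts. At that start the CpG ratio of Olfr463 was 0.0413, against a median of 0.106 for the receptors. Olfr543 had the highest mean H3K36me2 share, with 72.5 and 91.2% in Ctrl and 61.5 and 0% in cKO neurospheres, and 0% in the 4 hippocampal libraries. For Olfr71 and Olfr543 a single neurosphere library was at 0 while the other 3 were above 60%.

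Several receptors with well-studied ligands had no island, as did 798 of all 1128 receptors, or 70.7%. Olfr73, a receptor for eugenol, Olfr16, Olfr17, Olfr920 and Olfr1507 were at 0% for all marks in all 24 libraries. Olfr160, the M72 receptor for acetophenone, had no H3K27me3 island in hippocampus and 30.1, 26.9, 30.6 and 92.9% in neurospheres, and no island of the other marks. Olfr558, a class I receptor that is also expressed in tissues outside the nose, had H3K27me3 of 0, 0, 0 and 13.5% in hippocampus and 18.8, 15.9, 17.3 and 41.9% in neurospheres. In both receptors neurosphere cKO replicate 2 was the highest library, well apart from the other 3. Olfr78, a class I receptor with roles in the kidney and carotid body, had H3K27me3 in 2 libraries only, with 9.62% in hippocampal Ctrl replicate 1 and 5.61% in neurosphere Ctrl replicate 2. Olfr691 had 13.7 and 9.29% in the same 2 libraries. Olfr544, which is also expressed in liver and fat, had H3K36me2 of 17.2 and 83.3% in Ctrl and 60.3 and 0% in cKO neurospheres, the same libraries as its neighbour Olfr543. Olfr287 on chromosome 15 had H3K36me2 of 23.2 and 43.1% in Ctrl and 18.8 and 23.2% in cKO neurospheres.

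The effect of removing the CxxC zinc finger was asked of the covered share first, and no difference between the genotypes passed a test. The mean share for H3K27me3 in neurospheres was 2.78 points higher in cKO, and both cKO libraries were above both Ctrl libraries, with p = 0.333 by the exact permutation test, the smallest that 2 against 2 allow. The difference was 1.32 points without cKO replicate 2 and 4.24 without cKO replicate 1, and at equal covered length it was 1.30 with p = 1 by the exact permutation test, where the genotypes overlapped. The differences were 0.534 points for H3K27me3 in hippocampus, 0.121 and 0.454 points for H2AK119ub1 in hippocampus and neurospheres, and 0.0188 and -0.0148 points for H3K36me2, with p of 0.667 to 1 by the exact permutation test. With the 2 sources in a single test, permuted within each source, the differences were 1.66 points for H3K27me3 with p = 0.278, 0.287 for H2AK119ub1 with p = 0.444 and 0.00199 for H3K36me2 with p = 0.944, all by the exact permutation test, in which p cannot fall below 0.0556. Neurosphere cKO replicate 2 had the highest H3K27me3 share of the receptors, but not the highest share of the autosomes.

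Relative to the autosomes, H2AK119ub1 was the only mark whose enrichment was higher in both cKO libraries than in both Ctrl libraries in each source. It was 1.34 higher on the log2 scale in hippocampus and 0.45 higher in neurospheres, and 0.89 higher over both sources, with p = 0.0556 by the exact permutation test within sources and an adjusted p of 0.167 over the 3 marks. The hippocampal values rest on 2 to 12 islands per library. With 10 kb on each side the 3 differences were 0.32, 0.33 and 0.32, and with gene bodies alone they were 2.66 in hippocampus and 1.56 over both sources. At equal covered length the neurosphere difference was 0.12, with p = 1 by the exact permutation test, and the genotypes overlapped. The same differences were -0.21 and 0.30 for H3K27me3 and 0.23 and -0.35 for H3K36me2, and the p over both sources was 1 and 0.889 by the exact permutation test. No genotype difference in enrichment passed the adjustment. None could, since p cannot fall below 0.333 within a source or below 0.0556 over both by these exact permutation tests.

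Gene by gene, receptors whose covered share separated the genotypes, with both cKO libraries above or below both Ctrl libraries, were no more frequent than other genes. For H3K27me3 in neurospheres, 59 receptors, or 5.23%, were higher in cKO against 8.27% of all genes tested, and 12 were lower against 7.65%. In hippocampus 22 were higher against 8.54%, and 8 were lower against 1.25%. For H2AK119ub1 in neurospheres 6 were higher against 5.72% and 3 were lower against 4.24%, and in hippocampus 1 was higher against 1.99% and 0 were lower against 0.788%. For H3K36me2 in neurospheres 1 was higher against 5.69% and 5 were lower against 4.71%, and in hippocampus 1 was higher against 6.39% and 1 was lower against 2.69%. A gene at 0 in all 4 libraries cannot separate, and most receptors were at 0, so the share of receptors is bounded by how many had an island. A stricter rule asked for an island in both libraries of a genotype and in neither of the other. For H3K27me3 it left 11 receptors in hippocampus with islands in cKO alone against 2.73% of all genes and 4 in Ctrl alone against 0.433%, and in neurospheres 5 against 1.2% and 2 against 1.61%. For H2AK119ub1 it left 1 against 1.18% and 0 against 0.332% in hippocampus, and 4 against 2.35% and 1 against 1.17% in neurospheres. For H3K36me2 it left 1 receptor in either direction and source, against 1.36 and 1.1% in hippocampus and 1.27 and 0.577% in neurospheres.

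The receptors that separated in neurospheres with the largest H3K27me3 difference were Olfr213, with 10.2 and 4.07% in Ctrl and 54.3 and 87.8% in cKO, Olfr764-ps1, with 0 and 0% against 26.8 and 83.9%, and Olfr1382, with 0 and 26.3% against 54.0 and 83.4%. In hippocampus they were Olfr1411, with 53.7 and 0% in Ctrl and 87.0 and 89.1% in cKO, Olfr222, with 42.4 and 0% against 63.6 and 92.0%, and Olfr412, with 37.0 and 46.8% against 87.7 and 90.2%. Of these 6 receptors, 4 had at least 1 Ctrl library at 0%. For H2AK119ub1, Olfr284 had 0 and 0% in Ctrl and 72.2 and 76.3% in cKO neurospheres, and Olfr283 had 0 and 0% against 46.9 and 57.9%. Both lie in the cluster on chromosome 15. Olfr94 on chromosome 17 had 62.9 and 67.7% in Ctrl and 0 and 39.6% in cKO neurospheres. In hippocampus Olfr1414 was the receptor that separated for H2AK119ub1, with 0 and 0% against 7.36 and 26.1%. For H3K36me2 in neurospheres, Olfr1344 had 45.5 and 55.0% in Ctrl and 42.8 and 0% in cKO, and Olfr750 had 61.0 and 56.0% against 28.0 and 54.4%. In hippocampus Olfr155 had 0 and 0% against 9.92 and 31.9%, and Olfr1328 had 7.51 and 28.7% against 0 and 0%. No p below 0.333 is possible for any single receptor.

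Over whole clusters, 25 of 60 had more H3K27me3 in both cKO than in both Ctrl libraries in neurospheres and 3 had less, whereas in hippocampus 7 had more and 7 had less. The 25 clusters share the same 4 libraries, and in them cKO replicate 2 had the most receptors covered to at least 50%. For H2AK119ub1 the numbers were 5 and 4 in neurospheres and 2 and 1 in hippocampus, and for H3K36me2 they were 2 and 3 in neurospheres and 2 and 1 in hippocampus. No share over spans of other genes stands beside these cluster counts, so they are a description. For single gene windows and H3K27me3 in neurospheres, 8.27% of all genes were higher in cKO and 7.65% were lower.

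The read counts of the islands were compared in regions merged over the 4 libraries of a mark and source and called in all 4. Other merged regions were not tested, so a region gained or lost with the genotype could not be called. For H3K27me3, 95 of 381 receptor regions in neurospheres and 18 of 249 in hippocampus entered the test. For H2AK119ub1 and H3K36me2 in neurospheres, 6 of 80 and 3 of 48 did. In counts simulated for neurosphere H3K27me3, edgeR's quasi-likelihood test found 1 of 96 regions changed 2-fold, so small changes could be missed. No region at a receptor passed a false discovery rate of 0.05 by edgeR's quasi-likelihood test in the 4 comparisons that held such regions, and none did elsewhere, so the background is 0% in each. For H3K27me3 in neurospheres 95 of 11129 regions touched a receptor window, and 11 of them, or 11.6%, had an unadjusted p under 0.05 by edgeR's test, against 19.3% of all regions. By DESeq2's Wald test 3 of the 95 passed a false discovery rate of 0.05, against 6.82% of all regions. These 3 lay at Olfr1274-ps, at Olfr461 and at Olfr56 with Olfr1395. The median log2 difference of cKO over Ctrl was 0.30 at the receptors and 0.019 over all regions, and 71 of the 95 were above 0. Without cKO replicate 2 the median at the receptors was 0.11 with 61 above 0, and without cKO replicate 1 it was 0.50 with 73 above 0. The smallest adjusted p at a receptor was 0.149 by edgeR's test, in a region of chromosome 2 from 90402601 to 90424000 at Olfr1274-ps, with counts of 192 and 85 in Ctrl and 455 and 699 in cKO and a log2 difference of 2.11 with a standard error of 0.42. Without cKO replicate 1, edgeR's test called 13 of the 95 receptor regions and 2388 of all 11129. For H3K27me3 in hippocampus 18 of 4381 regions touched a receptor, with a median log2 difference of 0.047 and 9 above 0. None of the 18 had an unadjusted p under 0.05 by edgeR's test, against 3.54% of all regions, and none passed DESeq2's test, against 0.0685%. Without Ctrl replicate 1 the median was 0.56 with 12 above 0, and 5 of the 18 had an unadjusted p under 0.05 by edgeR's test, against 374 of all 4381 regions. With the other libraries left out in turn the median ran from -0.058 to 0.25. For H2AK119ub1 and H3K36me2 in neurospheres 6 and 3 regions touched a receptor, and none had an unadjusted p under 0.05 by edgeR's test, against 1.67 and 2.13% of all regions, or passed DESeq2's test, against 0.529 and 0.241%. Without Ctrl replicate 1, edgeR's test called the H2AK119ub1 region at Olfr412, 1 of 6, and 691 of all 6052 regions. No region called in all 4 hippocampal libraries touched a receptor for either of these marks.

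Genes that act in the same neurons were taken from a list of 23 olfactory signalling and receptor-choice genes, each as 2 kb on either side of the start. For H3K27me3, 5 of the 23 had an island in all 4 hippocampal libraries, against 8.79% of the same windows at all autosomal protein-coding genes, and 5 in all 4 neurosphere libraries, against 16.2%. These were Ebf1, Ebf2, Ebf3, Gng13 and Ano2 in hippocampus and Ebf1, Ebf2, Ebf3, Gng13 and Cnga4 in neurospheres. Of the 23, 15 had no H3K27me3 island in any hippocampal library and 11 had none in any neurosphere library. No share of all genes stands beside these counts without an island, so they are a description. For H2AK119ub1 the genes with an island in all 4 libraries were Ebf2 and Ebf3 in hippocampus, against 1.67% of all genes. In neurospheres they were Ebf2, Ebf3, Ebf4, Gng13 and Lhx2, against 7.08%. The EBF proteins and LHX2 are transcription factors of olfactory neurons that also act elsewhere in the brain, Gng13 encodes a G protein subunit, Cnga4 a subunit of the cation channel of odour transduction and Ano2 a chloride channel. For H3K36me2 no gene of the list was called in all 4 hippocampal libraries, against 0.447% of all genes, and Adcy3, the adenylyl cyclase of odour transduction, Rtp2 and Lhx2 were in neurospheres, against 5.12%. Few genes of the list separated the genotypes. For H2AK119ub1, Ebf1 was lower in both cKO than in both Ctrl libraries in hippocampus, against 0.505% of all genes, and Lhx2 and Emx2 were lower in neurospheres, against 3.5%. No gene of the list was higher for this mark in either source, against 0.61 and 2.24% of all genes. For H3K27me3, Cnga4 was higher in cKO neurospheres, against 3.61%, with none lower, against 5.1%, and none separated in hippocampus, against 3.82 and 0.827%. For H3K36me2 in neurospheres, Reep1 was higher, against 2.19%, and Rtp1 and Emx2 were lower, against 2.87%. None separated for this mark in hippocampus, against 1% higher and 0.553% lower. No p below 0.333 is possible for these genes either.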

How the data were processed

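Chromatin immunoprecipitation libraries of H2AK119ub1, H3K27me3 and H3K36me2 from P0 hippocampus and neurospheres were taken from the 24 deposited island lists. Per the study's methods and the submitters' processing notes, the authors trimmed adaptors with cutadapt, aligned reads to mm10 with Bowtie2 2.4.5, removed duplicates with samtools and called islands in each library with SICER against input, with windows of 200 bp, gaps of 600 bp and a false discovery rate of 0.01. Each deposited line gives an island with its read count, and the counts are not normalised. The total depth of the libraries is not given in the island lists, and its part in the covered shares was not tested.

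From these files, the bases of each receptor window in islands were summed (Python 3.11.15, numpy 2.4.6, scipy 1.17.1) and gene models were taken from GENCODE vM21. Genotypes, sources and marks were compared over libraries with two-sided exact permutation tests, and gene sets with exact sign-flip permutation tests over the 8 libraries of a mark, with Benjamini-Hochberg adjustment within each family of comparisons. Counts in regions called in all 4 libraries were tested over all such regions with edgeR 4.0.16 (TMM, quasi-likelihood test) in R 4.3.3, with DESeq2 1.42.0 as an alternative, and the scripts were tested on simulated data.

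Named receptors were those studied for their ligands or their expression outside the nose, up to 3 per mark and source with the largest difference among those that separated the genotypes, and the 5 with the highest mean share of each mark. Named clusters were the 5 with the most genes and the 3 highest and lowest per mark, and a summary is given for the rest. Olfr151 was on the list but is annotated as a polymorphic pseudogene and was not a member. The members and lists were chosen with earlier results of these data known. Alternatives were the gene body alone, 10 kb on each side, islands of at least 2 kb, islands reduced to equal covered length, other cluster gaps, and each library left out in turn.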

Additional observations from a re-analysis of the deposited data

Results flagged for a closer look

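The enrichment of the receptor windows in H3K27me3 was 0.950 in neurosphere cKO replicate 2, whereas the other 3 neurosphere libraries were at 0.585 to 0.614. The gap to the nearest library was 0.922 of the range over the 4 libraries of that source and mark, which is above the limit for 4 samples. Chance marks about 1 in 20 groups in this way, and 18 sets of 4 values were examined. This library also had the widest H3K27me3 island at a receptor and the most receptors covered to at least 50%. The part of the library itself in the genotype differences cannot be told apart from that of the genotype with 2 libraries.

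The 7 receptor genes of chromosome X were outside the comparisons. H3K27me3 islands covered 4.11% of their windows in hippocampal Ctrl replicate 1, 11 and 7.10% in neurosphere Ctrl replicates 1 and 2, and 18.4% in neurosphere cKO replicate 2. H3K36me2 islands covered 0.432% in hippocampal Ctrl replicate 1, 0.649% in hippocampal cKO replicate 1 and 0.432% in neurosphere cKO replicate 2. The other libraries had none.

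The 271 autosomal Olfr entries not annotated as protein-coding were also outside. Their median covered share over 4 libraries was 0.281% in hippocampus and 1.57% in neurospheres for H2AK119ub1, 2.80 and 5.12% for H3K27me3, and 0.340 and 0.536% for H3K36me2. The same order of marks held for the protein-coding receptors.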

How the results depend on the processing

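Across 548 alternatives for 70 results, 483 left the direction and the side of the threshold as they were. The depletion of the receptors from H2AK119ub1 and H3K36me2 relative to other genes, and the order of H3K27me3 above the other marks, were among them. The cause of the changes below was not tested. With islands reduced to equal covered length, the covered share difference of cKO minus Ctrl for H3K27me3 was -0.0803 points in hippocampus and -0.115 over both sources, the log2 enrichment difference was -0.46 for H3K27me3 and 0.10 for H3K36me2 over both sources, and the difference of neurospheres minus hippocampus for H3K27me3 was -1.67. With gene bodies alone, the covered share difference for H3K36me2 was 0.0238 in neurospheres, its log2 enrichment difference over both sources was 0.57, and H3K27me3 in receptors minus other genes was -1.46 points. With 10 kb on each side, H3K36me2 gave 0.0756 points in neurospheres and -0.082 for the log2 enrichment in hippocampus. With islands of at least 2 kb, the covered share difference for H3K36me2 over both sources was -0.0405. With islands lying by at least 50% inside windows, counts per kb for hippocampal H2AK119ub1 gave -0.087.

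Counts of receptors that separated the genotypes moved more. Under equal covered length, gene bodies alone and islands of at least 2 kb, no share of all genes stands beside them. Those counts describe only how far the numbers moved with the processing. Under equal covered length the number higher in cKO was 0 for hippocampal H2AK119ub1, 3 for neurosphere H2AK119ub1, 8 for hippocampal H3K27me3, 33 for neurosphere H3K27me3 and 0 for hippocampal H3K36me2, and the number lower was 4 for hippocampal H3K27me3 and 3 for neurosphere H3K36me2. When a gene had to have an island in both libraries of a genotype and in neither of the other, the number higher was 11 for hippocampal and 5 for neurosphere H3K27me3, and the number lower was 4 for hippocampal H3K27me3, 2 for neurosphere H3K27me3, 1 for neurosphere H2AK119ub1 and 1 for neurosphere H3K36me2. With gene bodies alone, 5 were lower for hippocampal H3K27me3, 0 higher and 0 lower for hippocampal H3K36me2, and 2 lower for neurosphere H3K36me2. With islands of at least 2 kb, 0 were higher for hippocampal H2AK119ub1 and 7 lower for neurosphere H3K27me3. With a cluster gap of 500 kb, 5 clusters separated for hippocampal H3K36me2. By DESeq2's Wald test 3 receptor regions were called for neurosphere H3K27me3.

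With each library left out in turn, the covered share difference ranged from -0.00544 to 0.914 for neurosphere H2AK119ub1, -0.943 to 2.01 for hippocampal H3K27me3, -0.00125 to 0.0388 for hippocampal H3K36me2, -0.260 to 0.230 for neurosphere H3K36me2 and -0.121 to 0.125 for H3K36me2 over both sources. The log2 enrichment difference ranged from -0.65 to 0.23 and -0.045 to 0.65 for H3K27me3 in hippocampus and neurospheres, -0.17 to 0.27 over both, -0.47 to 0.93 and -1.0 to 0.29 for H3K36me2, -0.41 to 0.29 over both, and 0.20 to 0.55 for H3K27me3 between sources. Receptors minus other genes for H3K27me3 ranged from -2.71 to -1.91 points, receptors minus vomeronasal genes for H3K36me2 from -0.00966 to 0.0861, and the width ratio of hippocampal H3K36me2 from -0.43 to 0.19. The receptor regions called by edgeR ranged from 0 to 1 for neurosphere H2AK119ub1 and 0 to 13 for neurosphere H3K27me3, where the lone library of a genotype is assumed to vary like the others.

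With the replicate number as a block, edgeR called 0 receptor regions in each comparison, with 4 of 18 for hippocampal H3K27me3 at an unadjusted p under 0.05, and the covered share difference for neurosphere H3K27me3 was 2.78 with p = 0.500 by an exact permutation test within pairs. The numbers are not known to pair the samples, since the deviations of same-numbered libraries correlated at -0.326 to 0.327 over the 6 comparisons. Crossing the numbers, which was chosen after seeing the data, gave 0 receptor regions for neurosphere H2AK119ub1 and H3K27me3. Equal covered length gave no value for 5 results on H2AK119ub1 enrichment, since a library was left without a covered base, and no receptor region could be tested for H2AK119ub1 and H3K36me2 in hippocampus. What depth the values rest on is known only as counts within islands, and its part in them was not tested.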
